A study of Homo sapiens with 25 samples.

Results

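The 56 genes described here encode proteins of the mitotic spindle, the kinetochore, the condensin complex and the regulators that act with them. They were chosen by symbol for their known role in mitosis. The kinesins named KIF and the cyclins were left to one side, while the kinetochore motor CENPE was kept. No measured value is part of the rule, but the choice was made with earlier results of these data known. All 56 were found among the 58302 genes of the count files, and all 56 passed the low-count filter of every fit. Their mean levels in the sorted cells ran from 12.7 to 584 CPM, that is, counts per 1e+06 gene counts after TMM scaling.

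RNA was measured by bulk poly(A) sequencing in 25 libraries of hiF-T, a cell line made from BJ human skin fibroblasts and labelled as fibroblast-like cells carrying an inducible hTERT. The genotype is given as WT throughout. In 20 libraries, untreated cells had either been left ungated or been sorted into gates of low, midlow, midhigh and high dye accumulation, with 4 libraries in each of these 5 groups. The series describes this as a sort by proliferation status, but the labels do not name the dye or say which level goes with slow division. The other 5 libraries form a drug set in which the number 1 marks DMSO, DOT1L inhibition and an LSD1 inhibition library, and the number 2 marks no drug and another LSD1 inhibition library. No compound, dose or exposure time is named for it. The cells are a single engineered line, and the labels speak of biological replicates without saying whether these were separate cultures, so the p-values measure only the spread between these libraries, which may be technical.

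Each library held 15015039 to 20030093 gene counts. Of 12 fibroblast markers, 11 were above 1 CPM on average in every sort group, and THY1 was under it. The summed fibroblast markers ran from 9879 to 15009 CPM over the sorted libraries, against at most 1.44 CPM for 8 blood cell markers, of which CD3E and LYZ were at 0. Of 8 epithelial and keratinocyte markers, 5 were under 1 CPM on average in every sort group (EPCAM, CDH1, KRT5, KRT14 and TP63), but the sum was 128 to 339 CPM, most of it from the keratins KRT18 and KRT8. Of 6 endothelial markers, PECAM1, VWF, CDH5 and CLDN5 were under 1 CPM, and the sum of 65.7 to 105 CPM came mostly from the receptor TEK. All 7 melanocyte and Schwann cell markers were under 1 CPM, with a sum of at most 3.97 CPM and SOX10 at 0. Of 7 pluripotent cell markers 5 were under 1 CPM, with ZFP42 at 0, and the sum of at most 8.92 CPM came largely from SOX2 and POU5F1. In bulk RNA, fewer cells in mitosis and less of each transcript per cell cannot be told apart.

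A dividing cell enters mitosis when cyclin-dependent kinase activity rises. Condensins compact its chromosomes, the spindle captures them at their kinetochores, and a checkpoint holds back the anaphase-promoting complex until every chromosome is attached. Most of the genes involved are transcribed late in the cell cycle, through promoters bound by the MuvB complex with B-MYB and FOXM1 and by the factor NF-Y. In resting cells the DREAM complex keeps many of the same promoters silent.

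The outer gates were compared first, to ask which genes differ between the ends of the dye range. All 56 genes had lower fitted levels in high dye than in low dye cells, and 35 passed the test (edgeR quasi-likelihood test, Benjamini-Hochberg adjusted p under 0.05 over all genes tested). None was higher. The share of members that fell was 62.5%, against 8.35% of the 14592 genes tested. The median log2 fold change of the members was -0.61, against 0.0078 for all genes tested, and no member reached a 2-fold difference in this fit. The replicate numbers pair the sorted libraries, and with the number as a block 52 members fell, against 17.4% of all genes. CDK1, TOP2A, UBE2C and HJURP were the 4 that were not called in either fit. Without overlap between the 4 low dye and the 4 high dye libraries, 28 members were lower, beside 9.34% of all genes, and each of these 28 was also called. In all 4 pairs of same-numbered libraries 47 members were lower, beside 21.8% of all genes.

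**Figure D1:**
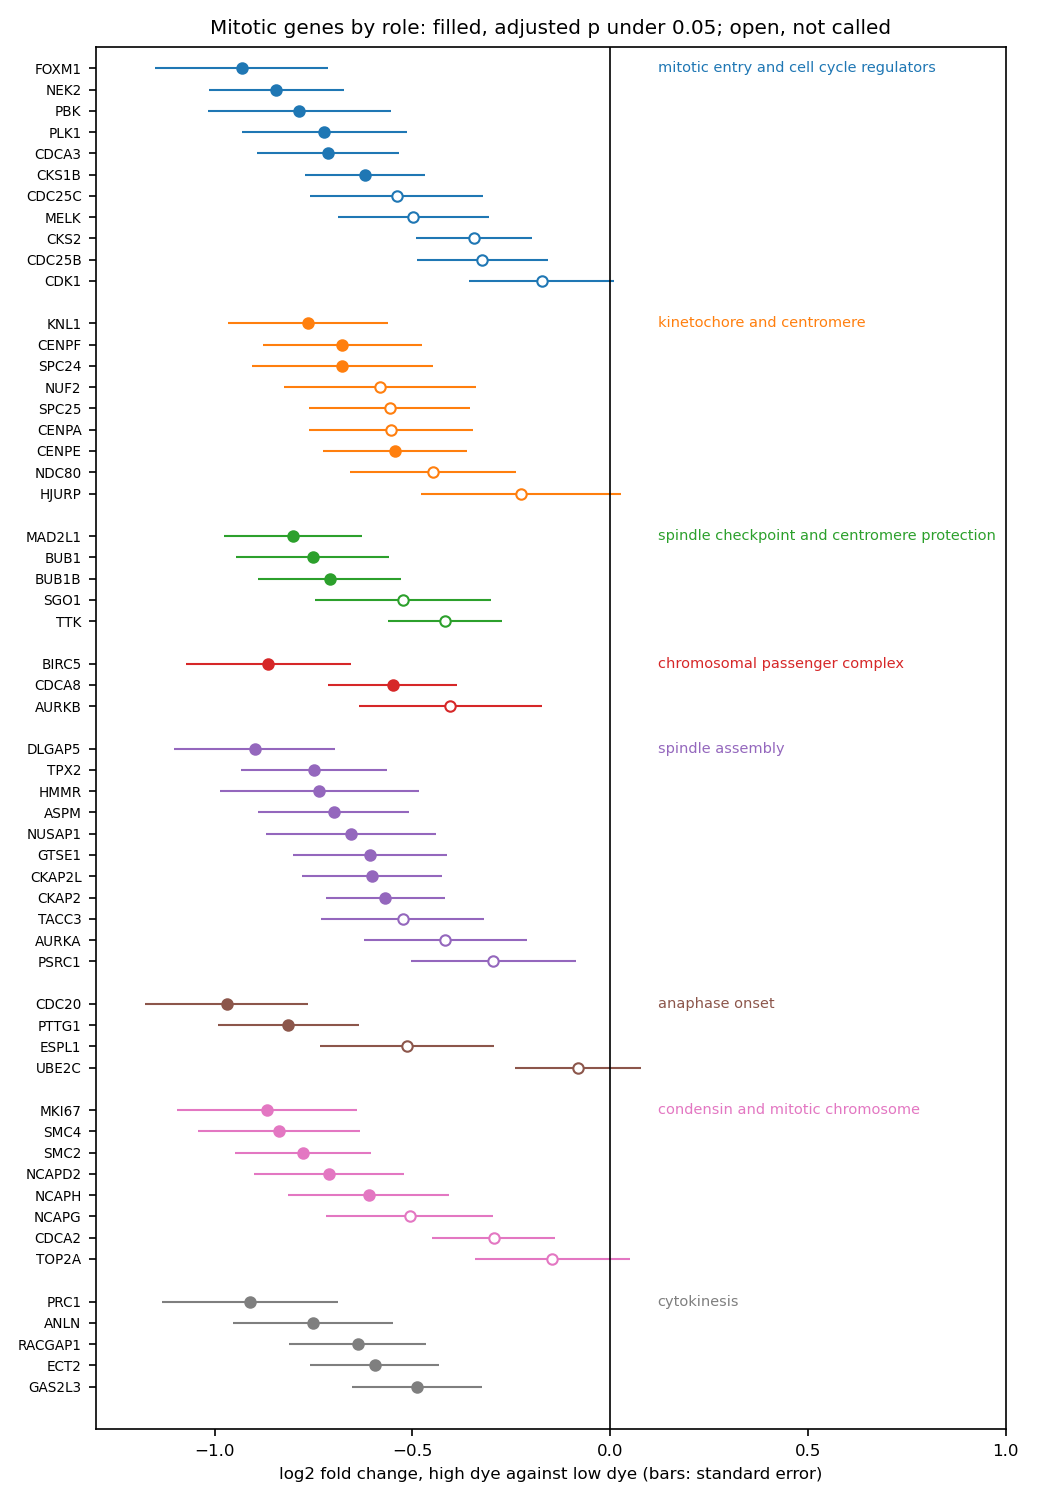
Log2 fold change of high against low dye cells for each of the 56 genes, grouped by role, with bars for the standard error. Filled points passed an adjusted p of 0.05 and open points did not. All points lie to the left of 0, from CDC20 at -0.97 to UBE2C at -0.081.

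The size of the difference was uneven over the replicates. The median log2 ratio of the 56 genes, high over low dye, was -0.92 in replicate 1, -0.19 in replicate 2, -1.31 in replicate 3 and -0.34 in replicate 4. All 56 genes were lower in pairs 1 and 3, 49 in pair 2 and 52 in pair 4. High dye replicate 3 held the lowest level of the 20 sorted libraries for 51 genes and high dye replicate 1 for the other 5. Without high dye replicate 3 the number of called genes was 14, without high dye replicate 1 it was 15, without low dye replicate 3 it was 22 and without low dye replicate 4 it was 23. High dye replicate 3 also had the most genes with at least 1 count, 26481, where the range over the 25 libraries began at 21991, and high dye replicate 1 had 24237. The part of this breadth in the result was not tested. A fit on only the 8 libraries of the outer gates called 10 genes. For the fits in this paragraph the share of all genes called is not given. A loss of calls particular to the 56 genes cannot be read from these counts. BIRC5, CDC20, DLGAP5, FOXM1, MAD2L1, NEK2, PTTG1, SMC2 and SMC4 were called in each of the 13 alternative fits.

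Promoter windows of 250 bases before to 50 after the annotated start, from RefSeq on GRCh38.p14, were matched by symbol for 46 of the 56 genes. AURKA, BIRC5, CDCA2, FOXM1, KNL1, PBK, RACGAP1, TPX2, TTK and UBE2C had no entry. The letters TTTGAA, the core of the element through which MuvB complexes bind (the cell cycle genes homology region, CHR), stood on either strand in at least 1 window of 32 of the 46 genes (69.6%), against 18.2% of 27305 genes in the table and 15.8% of its protein-coding genes. CCAAT, the box bound by NF-Y, stood on either strand in 34 (73.9%), against 39.7% of all genes and 42.1% of protein-coding genes. Both stood in the same window in 25 (54.3%), against 7.26% of all genes and 6.59% of protein-coding genes. TTTGAA starting 60 to 1 bases before the start was found in 20 (43.5%), against 3.76% of all genes.

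The stretches below come from genes on both sides of the threshold. CDC20, MKI67 and ASPM were called lower in high dye cells, and CKS2, TOP2A and CDK1 were not. Each begins 200 bases before the RefSeq start and stops ahead of any exon annotated in GENCODE 29, so it holds no transcribed bases of those models. Capitals mark TTTGAA and CCAAT, which read TTCAAA and ATTGG where the match is on the other strand.
CDC20: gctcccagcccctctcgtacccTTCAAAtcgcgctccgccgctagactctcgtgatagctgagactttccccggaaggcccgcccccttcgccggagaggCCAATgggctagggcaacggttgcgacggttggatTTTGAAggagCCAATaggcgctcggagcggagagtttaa
MKI67: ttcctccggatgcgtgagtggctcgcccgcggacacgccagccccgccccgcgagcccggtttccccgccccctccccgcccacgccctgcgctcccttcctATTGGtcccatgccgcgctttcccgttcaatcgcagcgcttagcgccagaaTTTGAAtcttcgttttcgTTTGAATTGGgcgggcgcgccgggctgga
ASPM: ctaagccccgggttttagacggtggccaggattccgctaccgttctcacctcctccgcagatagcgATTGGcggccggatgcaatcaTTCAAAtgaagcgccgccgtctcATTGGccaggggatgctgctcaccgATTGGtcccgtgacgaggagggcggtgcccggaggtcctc
CKS2: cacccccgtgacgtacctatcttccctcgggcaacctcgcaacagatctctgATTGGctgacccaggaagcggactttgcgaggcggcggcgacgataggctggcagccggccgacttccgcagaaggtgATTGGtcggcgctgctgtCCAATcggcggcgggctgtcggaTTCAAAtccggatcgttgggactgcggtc
TOP2A: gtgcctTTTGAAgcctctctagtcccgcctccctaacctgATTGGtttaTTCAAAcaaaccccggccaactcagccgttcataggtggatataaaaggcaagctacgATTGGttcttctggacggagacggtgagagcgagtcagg
CDK1: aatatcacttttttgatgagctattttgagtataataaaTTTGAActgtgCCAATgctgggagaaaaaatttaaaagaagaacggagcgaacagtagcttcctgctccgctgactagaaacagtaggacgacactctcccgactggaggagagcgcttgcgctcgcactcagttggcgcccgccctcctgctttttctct

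Both motifs occurred in all 6 stretches. In CDC20 (ENSG00000117399, chr1:43358781-43358954, plus strand) TTTGAA began 178 and 65 bases before the start and CCAAT 100 and 55 bases before it. In MKI67 (ENSG00000148773, chr10:128126424-128126623, minus strand) TTTGAA began 47 and 29 bases before the start, and the second of these shared its last base with a CCAAT on the other strand. ASPM (ENSG00000066279, chr1:197146695-197146869, minus strand) had 1 TTTGAA and 3 CCAAT, as did CKS2 (ENSG00000123975, chr9:89310995-89311194, plus strand). TOP2A (ENSG00000131747, chr17:40417951-40418096, minus strand) had 2 of each. The printed stretch of CDK1 (ENSG00000170312, chr10:60778131-60778330, plus strand) had 1 of each, 161 and 150 bases before the start. This stretch does not show all matches of CDK1. Over its full windows CDK1 had at least 2 CCAAT. It was also among the genes counted above with TTTGAA close to the start, through a window not printed here. Genes with and without the motifs overlapped in their differences. The median log2 fold change of high against low dye was -0.64 in the 32 genes with TTTGAA and -0.53 in the 14 without. With both motifs in a window it was -0.62 in 25 genes, and otherwise -0.57 in 21. These are descriptions of letters in a window and no evidence of binding.

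Among 11 regulators of mitotic entry, 6 fell, with a median log2 fold change of -0.62. FOXM1, the transcription factor that drives late cell cycle genes, measured 145, 130, 153 and 157 CPM in low dye replicates 1 to 4 and 55.4, 91.4, 48.4 and 112 CPM in high dye replicates 1 to 4. Its groups did not overlap, and FOXM1 fell by 0.93 ± 0.22 on the log2 scale (SE, edgeR adjusted p = 0.00736). PLK1, a kinase of mitotic entry and spindle assembly, measured 121, 127, 160 and 159 CPM in low dye and 62.0, 97.2, 59.2 and 124 CPM in high dye cells. The groups overlapped through replicates 1 and 4, and PLK1 fell by 0.72 ± 0.21 on the log2 scale (edgeR adjusted p = 0.0226). PLK1 lost the call without high dye replicate 1 or 3, or low dye replicate 3 or 4 (edgeR adjusted p = 0.0793, 0.0921, 0.0608 and 0.0623). Over the 13 alternatives its p ran from 0.00021 to 0.0921, and it was called in 8 of them. NEK2, a centrosomal kinase, the kinase PBK, CDCA3, which helps to degrade the mitotic inhibitor WEE1, and the CDK subunit CKS1B were the other 4 that fell.

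CDK1, the kinase that starts mitosis, stood apart from these. It measured 101, 84.9, 83.0 and 114 CPM in low dye and 69.0, 109, 58.5 and 103 CPM in high dye cells. It was higher in high dye cells of replicate 2 and lower in the other 3, and the log2 fold change of -0.17 ± 0.18 did not pass (edgeR adjusted p = 0.55). Its edgeR adjusted p ran from 0.249 to 0.94 over the alternatives. The phosphatases CDC25B and CDC25C, which activate CDK1, gave -0.32 and -0.54, the kinase MELK -0.50 and the CDK subunit CKS2 -0.34, none of them called. All 4 were called with the replicate block.

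Of 9 kinetochore and centromere genes, 4 fell: KNL1, CENPF, SPC24 and CENPE. KNL1, the scaffold on which checkpoint proteins assemble, measured 134, 136, 150 and 146 CPM in low dye and 56.9, 116, 55.8 and 105 CPM in high dye cells. All high dye libraries lay below all low dye libraries, and KNL1 fell by 0.76 ± 0.20 on the log2 scale (edgeR adjusted p = 0.0141). KNL1 missed the threshold when high dye replicate 1 or 3 was left out (edgeR adjusted p = 0.0547 and 0.0601), and was called in 10 of the 13 alternatives. The NDC80 complex binds microtubules, and of its subunits SPC24 fell while NDC80, NUF2 and SPC25, at -0.45, -0.58 and -0.56, passed only with the replicate block. CENPA, the centromeric histone H3 variant, gave -0.55 and was likewise called only with the block.

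HJURP, the chaperone that deposits CENPA, measured 72.5, 71.5, 70.8 and 106 CPM in low dye and 49.4, 78.0, 41.5 and 105 CPM in high dye cells. The ranges overlapped over most of their length, and the log2 fold change was -0.23 ± 0.25 (edgeR adjusted p = 0.576). With the replicate block the edgeR adjusted p was 0.0598, the lowest among its alternatives, which reached 0.935.

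Of 5 genes of the spindle checkpoint and centromere protection, MAD2L1, BUB1 and BUB1B fell. MAD2L1, which holds CDC20 inactive until chromosomes are attached, measured 99.7, 89.9, 117 and 109 CPM in low dye and 45.6, 69.8, 42.3 and 80.5 CPM in high dye cells. Its groups did not overlap, and the log2 fold change was -0.80 ± 0.17 (edgeR adjusted p = 0.00462). TTK, the checkpoint kinase also called MPS1, measured 63.6, 51.1, 63.5 and 67.0 CPM in low dye and 38.3, 55.2, 33.7 and 56.2 CPM in high dye cells. It was higher in high dye cells in replicate 2 and just missed the threshold at -0.42 ± 0.14 (edgeR adjusted p = 0.0512). SGO1, which protects centromeric cohesin, gave -0.52 and was not called. Both TTK and SGO1 were called with the replicate block.

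The chromosomal passenger complex, which corrects faulty attachments, was represented by 3 genes. BIRC5, also named survivin, measured 147, 166, 183 and 172 CPM in low dye and 63.7, 105, 59.9 and 139 CPM in high dye cells, without overlap. It fell by 0.86 ± 0.21 on the log2 scale (edgeR adjusted p = 0.00853). AURKB, the kinase of the complex, measured 42.8, 40.2, 41.8 and 50.5 CPM in low dye and 27.1, 39.7, 16.8 and 48.7 CPM in high dye cells. Replicates 2 and 4 differed little in AURKB, and the log2 fold change of -0.40 ± 0.23 did not pass (edgeR adjusted p = 0.242). With the block AURKB was called at an edgeR adjusted p of 0.0309, within a range of 0.0309 to 0.598 over the alternatives. CDCA8, the borealin subunit, fell by 0.55 on the log2 scale.

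Of 11 spindle assembly genes, 8 fell: DLGAP5, TPX2, HMMR, ASPM, NUSAP1, GTSE1, CKAP2L and CKAP2, with log2 fold changes from -0.90 to -0.57. DLGAP5, a factor that stabilises kinetochore microtubules, measured 153, 189, 202 and 184 CPM in low dye and 66.3, 118, 63.4 and 143 CPM in high dye cells. There was no overlap between the groups, and the log2 fold change was -0.90 ± 0.20 (edgeR adjusted p = 0.00599). TACC3, a spindle microtubule protein, gave -0.52 and was not called. NUSAP1 shares 62.2% of its annotated exon bases with another gene, so its count is uncertain.

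AURKA, the centrosomal kinase that TPX2 activates, measured 89.3, 92.9, 122 and 132 CPM in low dye and 53.1, 89.3, 66.6 and 118 CPM in high dye cells. It was lower in all 4 pairs with overlapping groups, and -0.42 ± 0.21 did not pass (edgeR adjusted p = 0.17). It was called with the block at an edgeR adjusted p of 0.00258, and the highest of its alternatives was 0.415. PSRC1, a microtubule-binding protein of the spindle, measured 23.7, 25.5, 23.8 and 24.95 CPM in low dye and 13.97, 23.8, 12.7 and 29.2 CPM in high dye cells. Its level in high dye replicate 4 was above every low dye library, and the log2 fold change was -0.30 ± 0.21 (edgeR adjusted p = 0.347). PSRC1 and TACC3 were called with the block as well.

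The 4 genes of anaphase onset held both extremes of the 56. CDC20, the activator of the anaphase-promoting complex, measured 209, 195, 222 and 225 CPM in low dye and 81.2, 131, 68.2 and 154 CPM in high dye cells. No high dye library reached a low dye one, and CDC20 fell by 0.97 ± 0.21 on the log2 scale, a 1.96-fold difference (edgeR adjusted p = 0.00416). UBE2C, the ubiquitin-conjugating enzyme of the same complex, measured 56.2, 48.9, 51.1 and 59.5 CPM in low dye and 41.7, 61.3, 36.6 and 64.1 CPM in high dye cells. UBE2C was lower in pairs 1 and 3 and higher in pairs 2 and 4, and -0.081 ± 0.16 did not pass (edgeR adjusted p = 0.768). Without high dye replicate 3 its fold change turned to 0.047. PTTG1 (securin), the inhibitor of separase, fell by 0.81 on the log2 scale, and ESPL1 (separase) gave -0.51 and was called only with the block.

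Of 8 condensin and mitotic chromosome genes, 5 fell: MKI67, SMC4, SMC2, NCAPD2 and NCAPH. MKI67, which coats mitotic chromosomes and encodes the proliferation marker Ki-67, measured 621, 620, 689 and 776 CPM in low dye and 270, 456, 229 and 526 CPM in high dye cells. The groups did not overlap, and the log2 fold change was -0.87 ± 0.23 (edgeR adjusted p = 0.0136). MKI67 lost the call without high dye replicate 1 or 3 (edgeR adjusted p = 0.0532 and 0.0556). SMC2 and SMC4, the ATPase core shared by both condensins, fell by 0.78 and 0.84 on the log2 scale, and the condensin I subunits NCAPD2 and NCAPH by 0.71 and 0.61. The third condensin I subunit, NCAPG, gave -0.51 and passed only with the block. SMC4 and NCAPG share 25.6% and 33.1% of their exon bases with other genes.

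TOP2A, the topoisomerase that untangles sister chromatids, measured 422, 429, 415 and 530 CPM in low dye and 299, 510, 262 and 552 CPM in high dye cells. Like UBE2C it was lower in pairs 1 and 3 and higher in pairs 2 and 4. Its log2 fold change was -0.15 ± 0.20 (edgeR adjusted p = 0.647) and turned to 0.014 without high dye replicate 3. CDCA2, which brings phosphatase 1 to chromosomes, gave -0.29 and was called only with the block.

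All 5 cytokinesis genes fell: PRC1, ANLN, RACGAP1, ECT2 and GAS2L3. PRC1, which bundles the central spindle, measured 258, 300, 341 and 315 CPM in low dye and 103, 196, 102 and 244 CPM in high dye cells. All high dye values were below all low dye values, and the log2 fold change was -0.91 ± 0.22 (edgeR adjusted p = 0.00917). In the fit on only the groups compared PRC1 missed the threshold (edgeR adjusted p = 0.0542). PRC1 shares 58.4% of its exon bases with other genes, among them an antisense transcript. GAS2L3, a linker of actin and microtubules, measured 51.2, 50.1, 54.6 and 53.3 CPM in low dye and 29.05, 46.2, 27.1 and 46.7 CPM in high dye cells. It was lower in every high dye library, at -0.49 ± 0.16 (edgeR adjusted p = 0.0458). GAS2L3 lost the call without high dye replicate 1 or 3, or without any 1 of the low dye replicates, with edgeR adjusted p-values of 0.0659 to 0.166. It was called in 6 of the 13 alternatives. ANLN, an actin and septin scaffold of the contractile ring, ECT2, the activator of RhoA, and RACGAP1, its centralspindlin partner, fell by 0.75, 0.60 and 0.64 on the log2 scale.

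**Figure D2:**
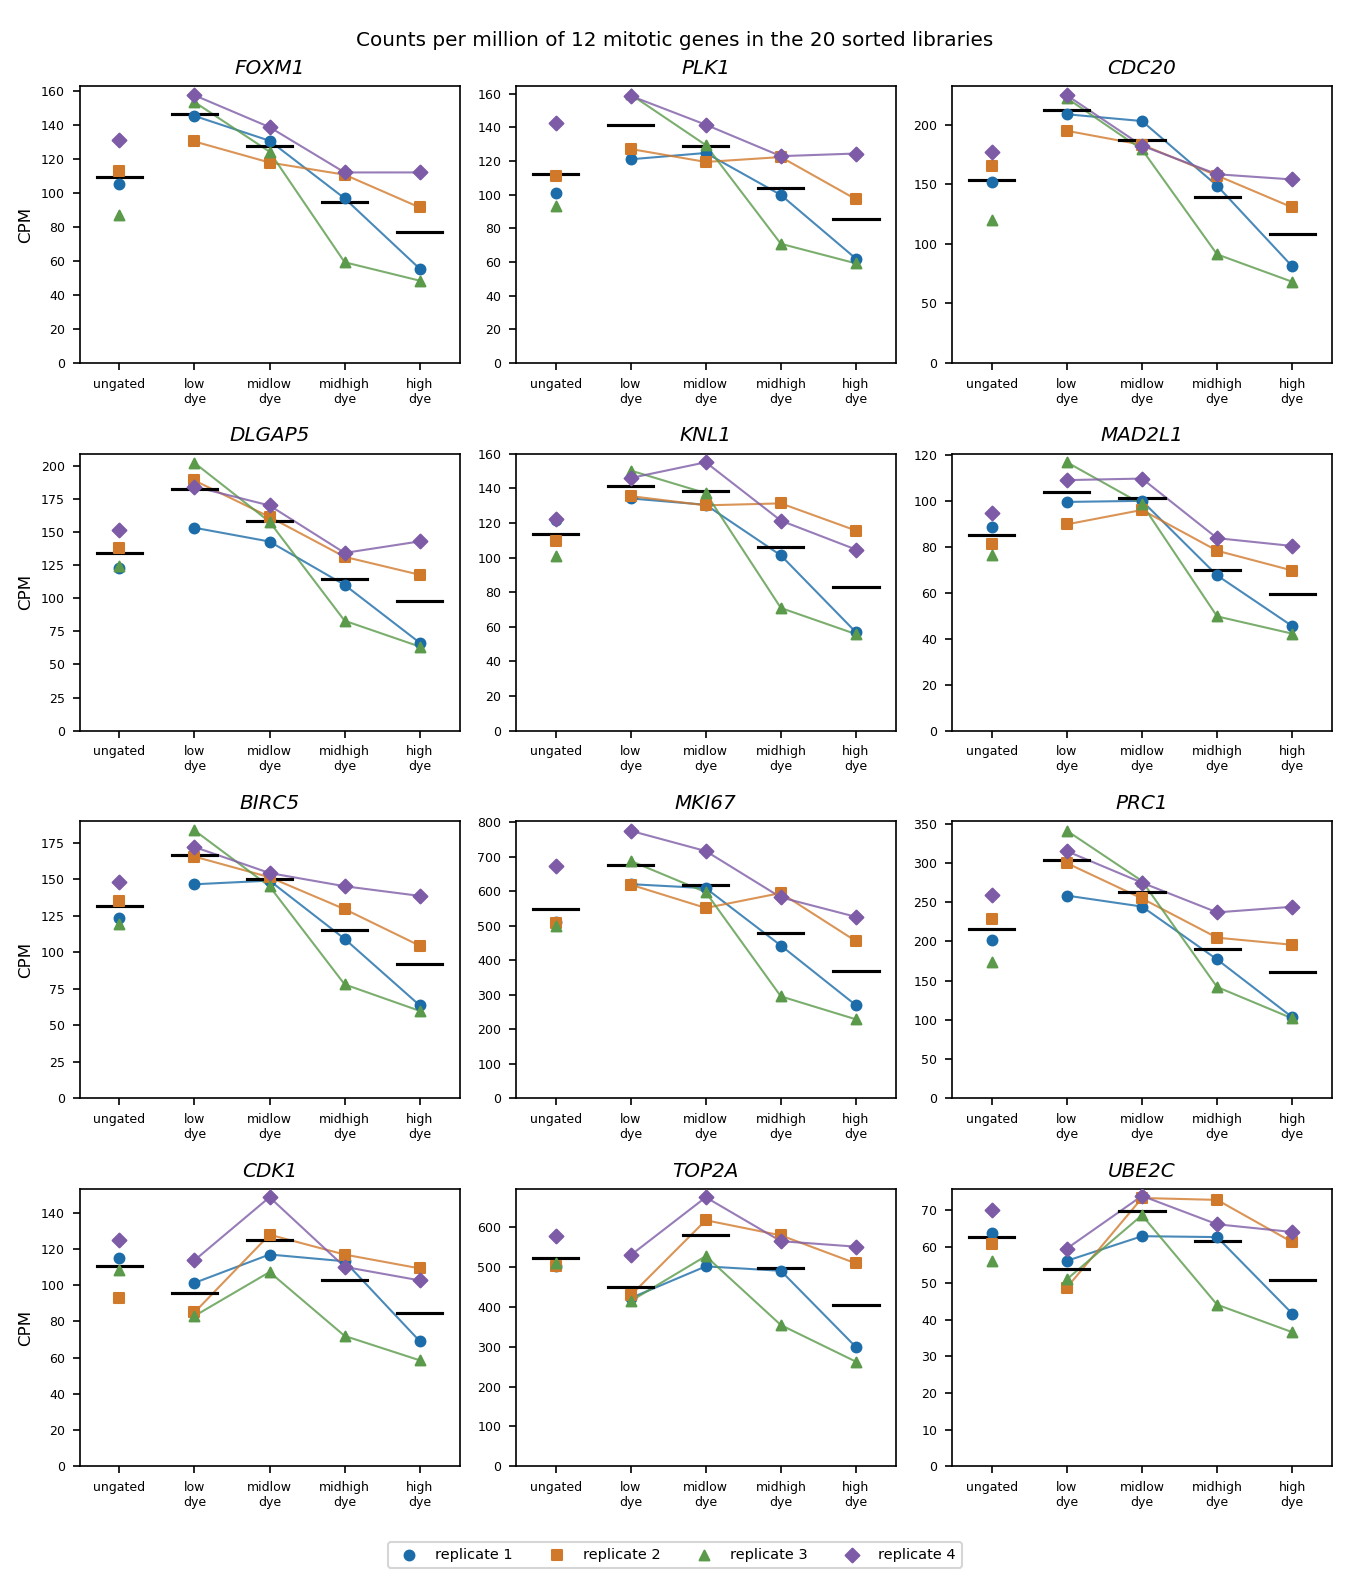
CPM of 12 of the genes in the 20 sorted libraries, by sort group, with a symbol for each replicate number, lines joining the gates of a replicate and black bars for group means. CDC20 went from 195 to 225 CPM in low dye to 68.2 to 154 CPM in high dye cells, while CDK1, TOP2A and UBE2C had their highest gate mean in midlow dye.

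The 4 gates allow the course between the ends to be followed. The mean log2 CPM of the 56 genes was 6.76 ± 0.12 in low dye, 6.77 ± 0.10 in midlow dye, 6.40 ± 0.34 in midhigh dye and 6.09 ± 0.51 in high dye cells (SD, n = 4 each), and 6.58 ± 0.14 in ungated cells. From low to midlow dye the group means moved in both directions, with a median log2 ratio of -0.010, 29 genes lower and 27 higher. From midlow to midhigh the median was -0.37 and from midhigh to high -0.26, with all 56 genes lower at each of these steps. The gate with the highest mean was low dye for 29 genes and midlow dye for 27. PRC1 had the lowest ratio of midlow over low dye, -0.21, and CDK1 the highest, 0.39. The SD of the mean level was wider in the midhigh and high gates, where replicate 3 was lowest, at 5.91 and 5.57, and replicate 4 highest, at 6.64 and 6.60.

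**Figure D3:**
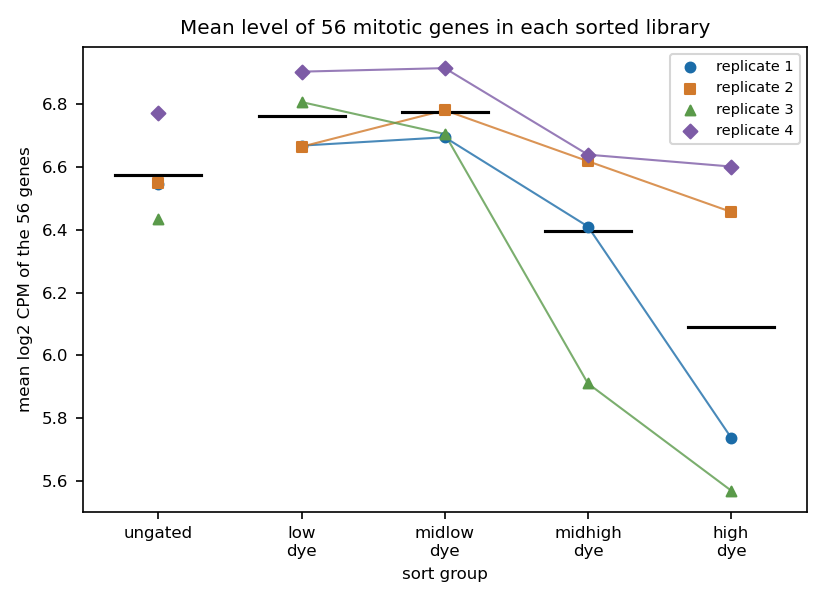
Mean log2 CPM of the 56 genes in each sorted library, with symbols for replicate numbers, lines joining the gates of a replicate and black bars for group means. The low and midlow gates lie close together, and the replicates spread apart in the midhigh and high gates.

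A straight line over the gates, taken as equal steps because no dye values are given, sloped down for all 56 genes. It passed for 41 (73.2%), against 12.3% of the 14419 genes tested, with a median of -0.22 per step on the log2 scale. All 35 genes called between the outer gates were among the 41, and CDC25C, MELK, SPC25, CENPA, TTK and TACC3 were the 6 added. CDC20 had the steepest slope, -0.33 ± 0.064 per step, followed by FOXM1 at -0.32 ± 0.068. With the replicate block 52 genes passed, against 20.7% of all genes lower, and CDK1, HJURP, TOP2A and UBE2C were again the ones that did not. Without high dye replicate 1 the number in the fit without the block was 27. The share of all genes called there is not given, so a loss particular to the 56 genes cannot be read from it.

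Between the middle gates no gene of the 14592 passed (0% lower, edgeR), although all 56 members were lower in midhigh than in midlow dye cells, with a median of -0.37. Of these, 19 of 56 had an unadjusted p under 0.05, against 13% of all genes in either direction, and DESeq2 called 0. MAD2L1 measured 100.2, 96.2, 98.7 and 110 CPM in midlow and 67.7, 78.4, 49.8 and 83.9 CPM in midhigh dye replicates 1 to 4, without overlap, and differed by -0.53 ± 0.17 on the log2 scale (edgeR adjusted p = 0.223). With the replicate block 18 members were called lower, against 5.27% of all genes, among them MAD2L1, SMC2, SMC4, CKS1B, ANLN and PTTG1.

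In the mean level of the 56 genes, ungated cells lay between the outer gates. Against them, no member was called in high dye cells (0% of all genes lower, edgeR), with 32 of 56 at an unadjusted p under 0.05, against 10.6% of all genes in either direction, and 0 by DESeq2. All 56 were nonetheless lower, with a median of -0.44, from MKI67 at -0.57 to PSRC1 at -0.22. With the replicate block 36 members were called lower, against 3.93% of all genes. CDK1 was not among these 36, but TOP2A was.

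Low dye cells had 50 members above and 6 below ungated cells, with a median of 0.20, and none was called (0% of all genes higher, edgeR; 4 of 56 at an unadjusted p under 0.05, a smaller share than the 13% of all genes, and 0 by DESeq2). With the block CDC20, PRC1 and DLGAP5 were called higher, at 0.50, 0.51 and 0.45, against 3.59% of all genes. CDC20 measured 152, 165, 120 and 177 CPM in the ungated libraries, below each of its low dye values. The 6 genes below ungated cells were TOP2A, CDK1, UBE2C, TTK, CDCA2 and HJURP, from -0.22 in TOP2A to -0.078 in HJURP. The comparisons with ungated and with low dye cells share libraries and are not independent of the one between the outer gates.

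The genes changed unequally, which a level relative to the mean of the other 55 genes in the same library makes visible. The 3 lowest and 3 highest differences of this relative level, high minus low dye, were picked after the values were seen and were not tested. For CDC20 it was 1.06, 0.96, 1.01 and 0.93 (log2) in low dye replicates 1 to 4 and 0.62, 0.58, 0.53 and 0.68 in high dye cells, a difference of -0.38. FOXM1 and PRC1 followed at -0.35 each. In all 3, every high dye library was below every low dye library.

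At the other end, UBE2C had relative levels of -0.87, -1.07, -1.15 and -1.03 in low dye and -0.36, -0.53, -0.38 and -0.61 in high dye cells, a difference of 0.56. CDK1 differed by 0.47 and TOP2A by 0.46. The groups did not overlap for any of these 3 genes. TOP2A was nearly constant among the high dye libraries, at 2.51 to 2.58, whereas its CPM ranged from 262 to 552 there. A ratio within a library shows unequal change and not that a gene was constant.

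**Figure D4:**
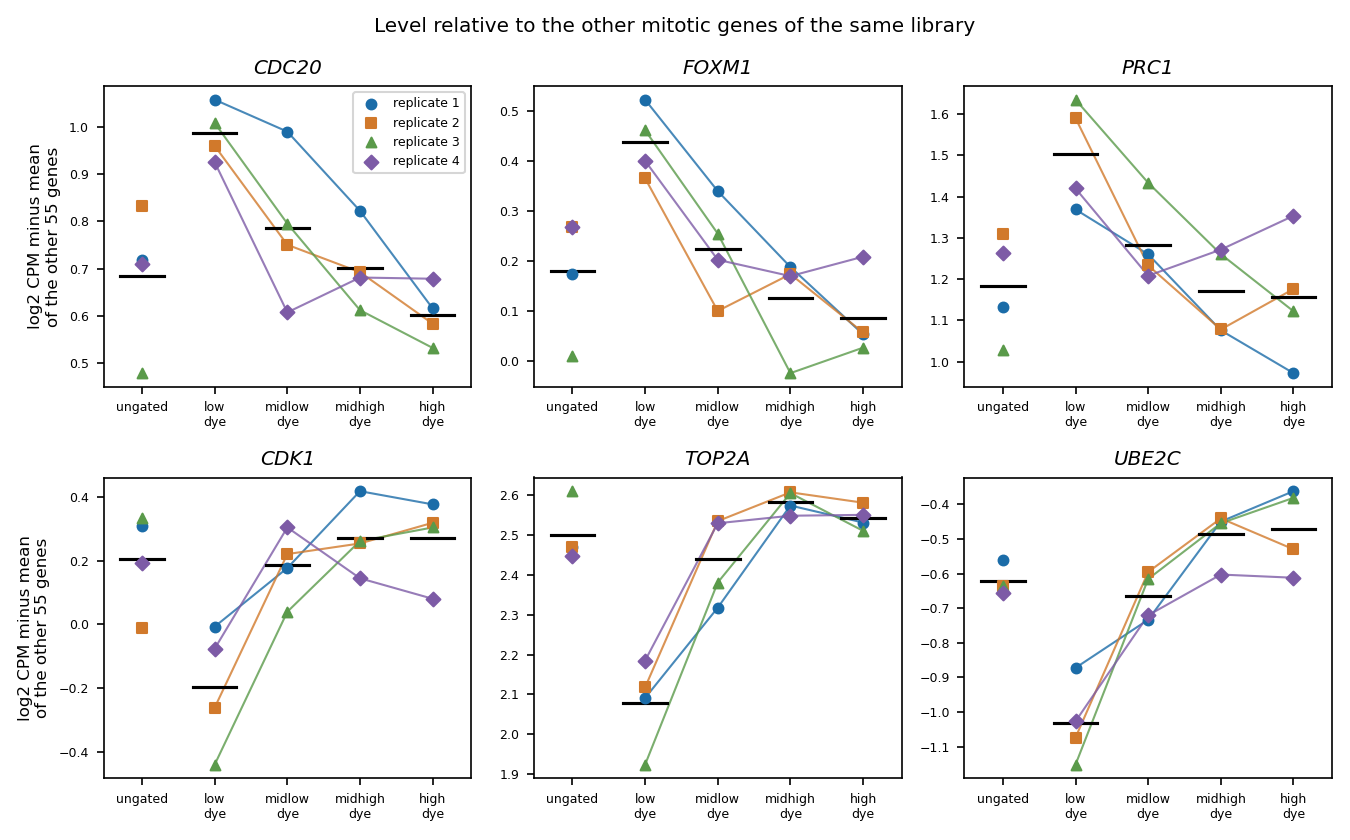
Log2 CPM of 6 genes minus the mean of the other 55 genes in the same library, by sort group, with symbols for replicate numbers and black bars for group means. CDC20, FOXM1 and PRC1 step down from low to high dye, and CDK1, TOP2A and UBE2C step up, mostly between the low and midlow gates.

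Levels can be compared between genes only per transcript length. In ungated cells, levels per length (TPM over the summed exon length) were highest for CKS2 (471 ± 41.7), ANLN (416 ± 61.0), TPX2 (379 ± 35.9), TOP2A (350 ± 19.2) and CDC20 (324 ± 50.5, SD, n = 4). ANLN overlapped in range with both CKS2 and TPX2, while every CKS2 value lay above every TPX2 value. SGO1 (16.5 ± 2.1), CDC25C (17.7 ± 1.9) and ESPL1 (22.1 ± 3.6) were lowest. On this measure the RNA of ESPL1 (separase) lay below that of PTTG1, which encodes its inhibitor securin, at 252 ± 15.9. The length joins all annotated exons of a gene, 613 bases for CKS2 and 8890 for ESPL1. It can exceed that of the transcripts present, so the ranks are rough. Genes of both high level (TOP2A, CKS2) and low level (CDC25C, SGO1) were among those not called between the outer gates.

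Related genes outside the 56 were counted in lists chosen by function. Of 28 other kinetochore and centromere genes, 20 fell and 1 rose from low to high dye, with a median of -0.58, against 8.35% of all genes lower and 9.39% higher. KNTC1, which helps to recruit dynein to kinetochores, and SKA2, of the Ska complex that keeps kinetochores on microtubules, fell by 0.95 ± 0.16 and 0.50 ± 0.091 (edgeR adjusted p = 0.00131 and 0.00188). CENPT was the gene that rose, at 0.26. Of 16 mitotic kinesins and cyclins 10 fell, with a median of -0.64, led in p by KIF20B (-0.77) and KIF20A (-1.03). Of 15 condensin II and cohesin genes 9 fell, with a median of -0.33, RAD21 by 0.53 and SMC1A by 0.51. With the replicate block 25 kinetochore and centromere genes, 15 kinesins and cyclins and 12 condensin II and cohesin genes fell, against 17.4% of all genes.

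Of 13 MuvB, MYB and DREAM complex genes 6 fell, with a median of -0.20, among them RBL1, a pocket protein of DREAM, at -0.91 and the MuvB subunit LIN9 at -0.80. Of 17 genes of the anaphase-promoting complex and its partners, ANAPC1, CDC23 and ANAPC15 fell and ANAPC13 rose, with a median of -0.15. Of 6 other checkpoint and passenger genes only TRIP13, which dismantles checkpoint complexes, was called, at -0.81. Of all genes 8.35% were called lower and 9.39% higher in this fit, so the 1 rising gene of 17 was no larger a share. With the replicate block 6, 9 and 3 genes of these lists fell, in the order given, against 17.4% of all genes. The block also called 3 of the 17 genes of the anaphase-promoting complex list higher, no larger a share than the 2891 of all 14592 genes. Between the outer gates 3 of 12 fibroblast markers rose, beside 9.39% of all genes, and none was called lower. COL1A2 rose by 0.65, COL3A1 by 1.36 and LUM by 2.02. VIM was the only marker with a negative fold change, -0.25. With the replicate block 7 markers rose, beside 2891 of 14592 genes, and 1 fell, beside 17.4% of all genes. The summed level of the 12 markers was 12205 to 14046 CPM in high dye and 9879 to 12036 CPM in low dye cells, and its part in the mitotic result was not tested.

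LSD1 is a histone H3 demethylase. The 2 LSD1 inhibition libraries were set against the DMSO and no drug libraries, pooled as controls. No member was called, and of all 14002 genes 0% were called lower and 0.114% higher (edgeR). DESeq2 also called 0 members, and KNL1 and CENPE were the 2 of 56 with an unadjusted p under 0.05, a smaller share than the 6.78% of all genes. Fitted levels were below controls for 55 of 56, with a median of -0.22, from CDC25C at -0.40 to CDC25B at 0.081. CENPE, the kinetochore motor protein, gave -0.38 ± 0.16 (edgeR adjusted p = 0.733). Within same-numbered libraries the median log2 ratio was -0.20 for LSD1 inhibition 1 over DMSO and -0.27 for LSD1 inhibition 2 over no drug. The fitted median ran from -0.055 without LSD1 inhibition replicate 2 to -0.44 without LSD1 inhibition replicate 1. With the replicate number as a block 38 members were called lower, against 968 of 14002 genes. The 2 pairs do not establish that the numbers pair the drug libraries.

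DOT1L is a histone H3 methyltransferase, and its inhibition is represented by 1 library, so no test was made. Against DMSO the median log2 ratio of the 56 genes was -0.27, with 54 below 0. SMC4, at 230 CPM against 349 CPM in DMSO, was the only gene past 1.5-fold lower (-0.60), beside 4.08% of all genes. Against the no drug library the median was 0.0074, with 25 genes below and 31 above 0 and none past 1.5-fold lower, beside 6.93% of all genes. The lower levels were thus seen against DMSO only, and the no drug library also carries the other replicate number.

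The control libraries themselves differed. In DMSO over no drug the median was 0.30, with 53 genes above 0, and CDK1 at 116 against 72.6 CPM was past 1.5-fold higher (0.67), beside 5.65% of all genes. Vehicle and replicate number cannot be told apart in these libraries. The mean log2 CPM of the 56 genes was 6.42 in DMSO, 6.16 in DOT1L inhibition, 6.23 in LSD1 inhibition 1, 6.13 in no drug and 5.85 in LSD1 inhibition 2. DMSO was the highest and LSD1 inhibition 2 the lowest of the 5 libraries.

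**Figure D5:**
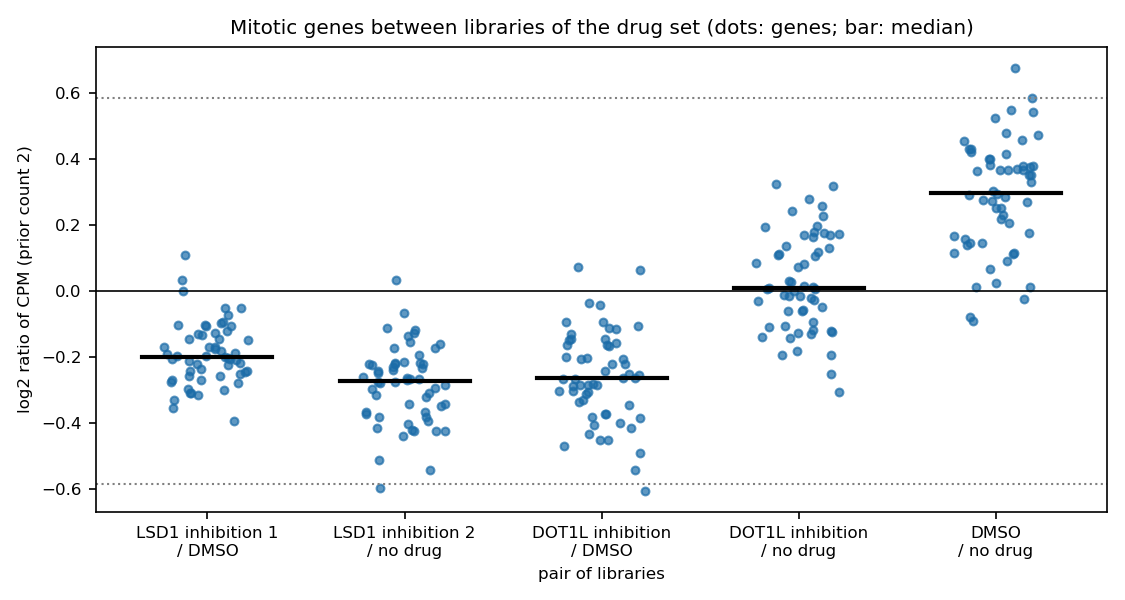
Log2 ratio of CPM (prior count 2) of each of the 56 genes between pairs of libraries in the drug set, with black bars for medians and dotted lines at 1.5-fold. The medians are -0.20, -0.27, -0.27, 0.0074 and 0.30 from left to right, so DMSO against no drug is as far from 0 as any inhibitor pair.

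Some counts carry a limit from the annotation, since the library kit named in the labels does not record strand. Exon bases shared with another gene made up over 25% in 4 genes, NUSAP1, PRC1, NCAPG and SMC4, and 21 genes shared some. Pseudogenes named after a member exist for 14 of the 56, including CKS1B, UBE2C and CDC20, with summed levels of at most 0.468 CPM on average, and PTTG3P, a relative of PTTG1, was at 0.573 CPM.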

How the data were processed

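RNA was sequenced in 25 libraries, and the authors deposited unnormalised counts for each Ensembl gene, made with STAR and HTSeq on hg38 (GRCh38) per the submitters' processing notes. Versions, annotation release and strand setting are not given in the sources used here. Symbols matched 57532 of 58302 genes, and GENCODE 29 gave biotypes, exons and coordinates for 58039. Gene counts per library were 15015039 to 20030093, so that 3 counts, the limit a count of 0 allows, equal 0.15 to 0.2 CPM (counting error only). Reads assigned to no feature (4.33% to 7.72%) stayed out of library sizes. Libraries within a group differed beyond sampling noise (chi-square over its degrees of freedom at least 7.4).

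Tests used edgeR 4.0.16 under R 4.3.3 (glmQLFit and glmQLFTest, TMM, filterByExpr with minimum count 10 and minimum total 15) with calls made below an adjusted p of 0.05 (Benjamini-Hochberg, over all genes). The 20 sorted libraries shared 1 fit, the trend used the 16 gated libraries, and the drug fit pooled DMSO with no drug as controls. Standard errors of log2 fold changes were derived from the F statistic. DOT1L inhibition was described by log2 ratios of CPM with a prior count of 2. The code was tested on simulated data. Alternatives were DESeq2 1.42.0, its size factors in edgeR, no low-count filter, only the groups compared, the replicate block, each library left out, a prior count of 0.5 and the other control.

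Same-numbered sorted libraries deviated together: after removal of group means all 40 such pairs correlated above 0.1 across genes (0.146 to 0.618), as did 16 of 120 pairs with different numbers. The numbers thus pair the samples. The reported fits leave this pairing out, and it enters only with the replicate block. Calls, standard errors and p-values given without mention of the block are from the unpaired fits, and many calls differ with the block. Between the outer gates the members whose call changed with the block are named, mostly without their blocked values. For the other tests of members, blocked counts are given and only some members are named. For the lists, blocked counts are given between the outer gates. The members, roles, lists and tests were chosen with earlier results of these data known. Full values are given for the lowest and highest log2 fold change of each role and for CDK1, PLK1, FOXM1, AURKA, AURKB, CDC20, MKI67 and TOP2A. Of the other lists at most the 2 lowest p, and any count of 5 or fewer, are named. A series-wide table in long form, holding the same counts, was not used.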

Additional observations from a re-analysis of the deposited data

Results flagged for a closer look

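For 18 genes with full values and for the mean level, each group of 4 libraries was searched for a library standing far from the rest, by the gap to its neighbour over the range of the group. Of 95 such checks 7 passed, and chance passes about 1 in 20. In midhigh dye cells replicate 3 stood low for CDK1 (71.9 CPM, the others at 110 to 117 CPM) and for CDC20 (91.3 CPM, the others at 149 to 159 CPM). In low dye cells replicate 4 stood high for HJURP (105.7 CPM, the others at 70.8 to 72.5 CPM) and for TOP2A (530.3 CPM, the others at 415 to 429 CPM). In ungated cells replicate 4 stood high for MKI67 (673.8 CPM, the others at 501 to 512 CPM) and for TOP2A (579.1 CPM, the others at 502 to 511 CPM). In midlow dye cells replicate 1 stood high for CDC20 (203.3 CPM, the others at 179 to 183 CPM).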

How the results depend on the processing

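Between the outer gates, 35 of 56 genes were called in the reported fit, 52 with the replicate block, 37 by DESeq2, 35 with DESeq2 size factors and 43 without the low-count filter, all lower. With only the groups compared it was 10, and with each library left out in turn 14 to 47. Shares of all genes are given above only for the reported and the blocked fit. For the trend the count was 41, and 27 to 46 with libraries left out. Midhigh against midlow dye had 0 calls, 1 without the filter and 18 with the block. High dye against ungated went from 0 to 36 calls with the block, low dye against ungated from 0 to 3, and LSD1 inhibition from 0 to 38 (968 of 14002 genes lower), where 2 pairs (correlation 0.557) do not establish pairing. Leaving out drug libraries moved the median of LSD1 inhibition over -0.44 to -0.055. With no drug as the control the DOT1L inhibition median turned to 0.0074, with 0 genes past 1.5-fold. With libraries left out, UBE2C ran from -0.21 to 0.047 and TOP2A from -0.33 to 0.014 between the outer gates, and the UBE2C trend from -0.076 to 0.0019 per step, each positive only without high dye replicate 3. The cause of these changes was not tested. The other medians stayed on their side of 0 in every alternative run. Each group had at most 4 libraries, and the drug set 1 or 2, which limits the precision. Mean levels of the members in the sorted cells were 12.7 CPM and above. Single libraries went lower, as in CDC25C at 6.43 CPM in high dye replicate 3. No member was near the counting floor of 0.15 to 0.2 CPM.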
